A study of Mus musculus with 9 samples.

Results

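Whole mouse embryos homozygous for a targeted allele of Dll3 were compared with embryos heterozygous for it at 9.5 days post coitum (dpc), on Affymetrix expression arrays. The comparison used 4 of the 9 arrays of the series, chosen by their titles: 2 Dll3 null arrays, from embryos labelled Dll3neo/neo, and 2 Dll3 het arrays, from embryos labelled Dll3neo/+. All 4 thus carried at least 1 copy of the neo allele, and the labels give no Dll3 wild-type littermate. The other 5 arrays were of Notch1tm1Con/tm1Con (2), Notch1tm1Con/+ (1) and +/+ embryos (2) of the same age. They were in neither group compared. They entered the shared estimate of spread, a comparison of Dll3 levels and, it appears, the medians that divide the ratios. The strain of the Dll3 embryos, their litters and whether an array held 1 embryo or a pool are not given in the labels. P-values therefore measure only the spread between arrays, which may be partly technical.

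Dll3 encodes a divergent ligand of the Notch pathway. In canonical signalling, a Delta or Jagged ligand on one cell binds a Notch receptor on its neighbour, the receptor is cut, and its intracellular part joins the DNA-binding protein RBPJ to switch on targets such as the Hes and Hey repressors. In the presomitic mesoderm of the mouse this pathway cycles as part of the segmentation clock, which lays down somites, the forerunners of vertebrae and trunk muscle. Dll3 differs from other Delta ligands in acting within the signalling cell, where it lowers Notch activity, and its loss in mouse and human is known for malformed vertebrae and ribs.

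The promoters of 3 clock genes and of Dll3 itself are shown because the comparison asks whether such targets differ between the genotypes. Each line is the 250 bases before the RefSeq start in GRCm38.p6, 5′ to 3′ on the gene's strand, with capitals marking every GTGGGAA, a core of RBPJ sites, or its reverse complement TTCCCAC. The regions are chr4:154960673-154960922 (Hes5, plus strand), chr11:69120203-69120452 (Hes7, plus), chr5:140607091-140607340 (Lfng, plus) and chr7:28301786-28302035 (Dll3, minus).

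Hes5: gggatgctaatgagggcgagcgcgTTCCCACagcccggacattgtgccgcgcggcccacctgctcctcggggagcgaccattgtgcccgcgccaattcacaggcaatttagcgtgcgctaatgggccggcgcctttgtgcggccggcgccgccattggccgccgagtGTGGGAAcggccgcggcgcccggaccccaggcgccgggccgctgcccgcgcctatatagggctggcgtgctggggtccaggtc
Hes7: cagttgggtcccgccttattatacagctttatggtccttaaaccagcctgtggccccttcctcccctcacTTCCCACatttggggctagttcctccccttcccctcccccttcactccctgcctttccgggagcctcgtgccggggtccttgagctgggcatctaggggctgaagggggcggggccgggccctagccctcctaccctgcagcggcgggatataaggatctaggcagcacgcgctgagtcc
Lfng: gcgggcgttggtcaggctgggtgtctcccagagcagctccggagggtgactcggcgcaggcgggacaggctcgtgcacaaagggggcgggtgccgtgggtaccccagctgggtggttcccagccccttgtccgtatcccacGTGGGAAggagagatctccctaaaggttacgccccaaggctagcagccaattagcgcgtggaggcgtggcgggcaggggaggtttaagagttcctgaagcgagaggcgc
Dll3: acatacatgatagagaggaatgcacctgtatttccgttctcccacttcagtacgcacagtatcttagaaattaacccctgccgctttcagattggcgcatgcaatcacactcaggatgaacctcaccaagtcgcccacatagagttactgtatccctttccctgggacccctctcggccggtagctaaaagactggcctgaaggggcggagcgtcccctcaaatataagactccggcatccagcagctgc

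Hes5 held the motif once on each strand, starting 83 bases (forward) and 226 bases (reverse) before the gene's start. Hes7 held it once in reverse, at 180 bases, and Lfng once forward, at 109 bases. The Dll3 window did not contain these letters. Of 32851 promoters of this length, 1779 (5.42%) held the motif on either strand. Of 31 Notch pathway and segmentation genes followed below, 25 had a promoter in the table, and 6 of them held it (Lfng, Hes5, Hes7, Hey2, Msgn1 and Tbx18). A match to letters is a description of the sequence and does not show that RBPJ binds there.

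The deposited values are ratios, given for each probe set (a group of probes for 1 transcript). They appear to have been divided by the probe set's median over the arrays or, for some, by another number that no source used here states. They compare arrays but do not give absolute levels. For that reason the ratios cannot show whether a tissue's defining markers were present. Over all probe sets, the 2 Dll3 null arrays correlated at 0.651 and the 2 Dll3 het arrays at 0.673. Pairs of opposite genotype ranged between 0.617 and 0.743. The 2811 probe sets with a median ratio below 1 add to the correlation of every pair. These values therefore do not measure likeness of expression alone. Replicate 1 of each genotype had a female pattern (Xist ratios at 1 probe set of 3.89 in null and 5.64 in het) and replicate 2 a male one (0.826 and 1), so both genotypes held 1 of each. The poly-A controls added to the RNA (dap, thr, phe, lys) overlapped between genotypes. Their similar levels were known when the comparison was set, so this is not a check of it. The hybridisation controls added to the labelled sample did not. Mean ratios of bioB were 0.827 and 1.02 in Dll3 null against 1.64 and 1.18 in Dll3 het, and bioC, bioD and cre were also lower in both null arrays, by 0.29 to 0.70 on the log2 scale for these 3. These levels move with genotype, and their part in the results was not tested.

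Dll3 itself had ratios of 0.804 and 0.933 in Dll3 null embryos, against 1.06 and 0.987 in Dll3 het embryos. Both null arrays lay below both het arrays, though the second by little. They also lay below the other 5 arrays of the series, where Dll3 ranged from 0.981 to 1.16. On the log2 scale, null minus het was -0.24 ± 0.12 SE, with a 95% interval from -0.51 to 0.03. By limma the adjusted p was 0.897, so the difference did not pass the test. Leaving out Dll3_null replicate 1 gave -0.13, and leaving out Dll3_null replicate 2 gave -0.35. Dll3 is represented by 1 probe set, and the sources used here do not say where its probes lie relative to the sequence altered in the neo allele. Its value therefore does not check the genotype labels.

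No transcript passed the test between the genotypes. By limma, 0 of 22626 probe sets (0% higher and 0% lower) had an adjusted p under 0.05, and the lowest adjusted p was 0.897. At an unadjusted p under 0.05 there were 1201 probe sets, 5.31% of those tested, of which 753 (3.33%) were higher and 448 (1.98%) lower in Dll3 null. Most differences were small. The 95% interval lay within 1 log2 unit of no difference for 22421 probe sets (99.1%), and 182 probe sets differed by more than 0.5. The median difference was 0.01, and the median standard error 0.13.

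The spread between genotypes was about that between the replicate numbers. Differences of null minus het had an SD of 0.16 over probe sets, and differences of replicate 2 minus replicate 1 within these 4 arrays had an SD of 0.17. Between replicate numbers 0 probe sets passed by limma (lowest adjusted p = 0.840) and 1311 (5.79%) had an unadjusted p under 0.05. The lowest p there belonged to Xist (-2.36), followed by Rian, an imprinted noncoding RNA (0.75). With only the 4 Dll3 arrays in the fit, the genotype contrast still had 0 calls, while the replicate contrast had 5, among them the Y-linked Kdm5d and Eif2s3y.

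**Figure D1:**
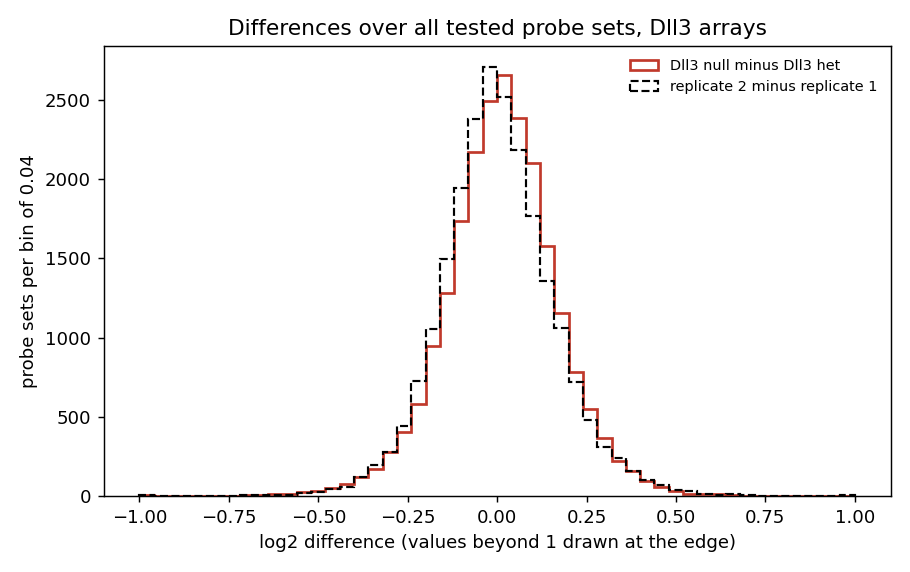
Number of probe sets (vertical axis, bins of 0.04) by log2 difference (horizontal axis) for Dll3 null minus Dll3 het (solid) and for replicate 2 minus replicate 1 of the same 4 arrays (dashed). The distributions have nearly the same width, with SDs of 0.16 and 0.17.

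The count of calls depended on 1 array. Without Dll3_null replicate 2 it was 17 (3 higher, 14 lower), and without any of the other 3 arrays it was 0. These 17 rest on Dll3_null replicate 1 alone, and Dll3_null replicate 2 lay on the same side of both het arrays in 3 of them. Taok1, a stress-activated kinase gene, had ratios of 0.290 and 1.34 in Dll3 null, against 1.25 and 1.24 in Dll3 het. Luc7l2, a splicing factor gene, had 0.288 and 1.12 in null and 1.26 and 1 in het. Tubb5, a beta-tubulin gene, stood on the other side, with 2.47 and 0.774 in null and 0.783 and 0.677 in het. In each of these genes Dll3_null replicate 1 stood far from the other 3 arrays, and Dll3_null replicate 2 was near the het values.

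Notch ligand genes did not pass in either direction (0 of 7 measured). Averaged over the probe sets of a gene, where 20.7% of all 12393 genes had both null arrays above both het arrays and 12.5% both below, 1 of these 7 lay above (Jag2) and 1 below (Dll3). Dll1, the main Delta ligand of the clock, had ratios of 1.01 and 1.10 in Dll3 null and 1 and 1.19 in Dll3 het, and the groups overlapped. Dll4, a ligand of vessels, differed by -0.24 ± 0.15 SE at 1 probe set and 0.05 ± 0.10 at the other. Jag1, a Jagged ligand, had ratios of 1.69 and 1.11 in null and 1.02 and 1 in het at 1 probe set, a difference of 0.44 ± 0.19. That value rests largely on Dll3_null replicate 1, and the second Jag1 probe set differed by 0.06 ± 0.14 with overlapping groups. Dner, a Notch ligand of neurons, differed by -0.32 ± 0.15 at 1 probe set and by -0.01 ± 0.11 at the other.

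The receptors and the fringe glycosyltransferases, which modify Notch so that it favours one ligand class, gave differences near 0. Averaged over probe sets, the 4 receptor genes ranged from -0.11 (Notch2) to 0.06 (Notch4), and 0 passed. Notch1 had ratios of 0.752 and 0.894 in Dll3 null against 1 and 0.861 in Dll3 het at 1 probe set, and 1 and 0.602 in null against 0.692 and 0.863 in het at the other. The groups overlapped at both. Lfng, the fringe gene that oscillates in the clock, had 1.01 and 1.03 in null and 0.983 and 1.08 in het at its first probe set (-0.02 ± 0.11), and 0.06 ± 0.14 at its second. Mfng differed by 0.05 ± 0.15 and Rfng by 0.13 ± 0.12 and 0.03 ± 0.11. Of 32 genes for the processing, RBPJ-linked and repressor machinery, 0 passed and 0 had an unadjusted p under 0.05. Their differences ranged from -0.17 to 0.23, the highest being Mib2, a ubiquitin ligase for Notch ligands.

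Genes listed as Notch targets did not pass the test either. Among 18 measured targets, 0 passed, 4 lay above and 2 below (22.2% and 11.1%, against 20.7% and 12.5% of all genes), and the median difference was 0.01 against 0.01 over all genes. Hes5, whose promoter held the motif on both strands, had ratios of 1.12 and 1.05 in Dll3 null and 0.873 and 1 in Dll3 het at 1 probe set (0.22 ± 0.12 SE). Its other probe set gave 1 and 1.01 in null and 0.979 and 1.03 in het, a difference of -0.0002 ± 0.12. The 2 Hes5 probe sets thus did not give the same result. Hes7, the clock's core oscillating repressor, had 1.01 and 1.03 in null and 0.921 and 1 in het, a difference of 0.09 ± 0.12 with the null arrays just above. Hes1 differed by 0.08 ± 0.13, Hey1 by 0.01 ± 0.16 and Hey2 by 0.03 ± 0.13, with overlapping groups. Nrarp, a feedback inhibitor of Notch, gave 0.08 ± 0.21 and -0.11 ± 0.13 at its 2 probe sets. The lowest unadjusted p in the list, by limma, was 0.0191, for Ephb4, a receptor gene of veins (0.31 ± 0.11).

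**Figure D2:**
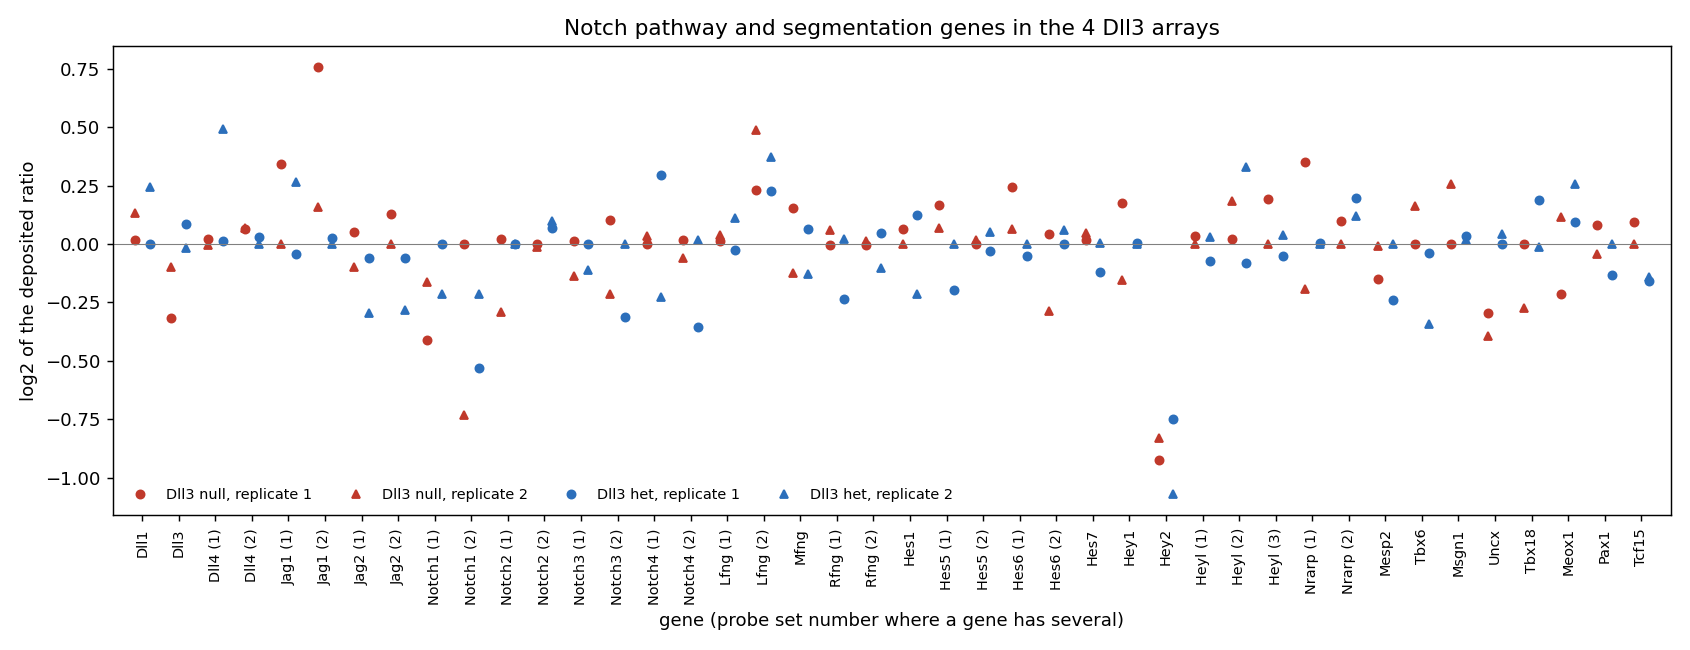
Log2 of the deposited ratio (vertical axis) for Notch ligand, receptor, fringe and target genes and segmentation genes (horizontal axis, 1 column a probe set). Each point is 1 array, Dll3 null left in each column and Dll3 het right, with circles for replicate 1 and triangles for replicate 2. Red and blue points overlap in most columns, and Uncx shows both null arrays below both het arrays.

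Genes of the presomitic mesoderm and the clock did not pass (0 of 35), with 6 above (17.1%, against 20.7% of all genes), 1 below (Dll3 itself, 2.86% against 12.5%) and a median of 0.03. Because whole embryos were measured, fewer cells of a type and less RNA per cell cannot be told apart here or in the lists that follow. Mesp2, which sets the somite boundary and acts downstream of Notch, had ratios of 0.902 and 0.994 in Dll3 null and 0.848 and 1 in Dll3 het (0.04 ± 0.14 SE). Tbx6, the presomitic mesoderm regulator that switches on Mesp2, had 1 and 1.12 in null and 0.973 and 0.789 in het. Its groups did not overlap, and the difference was 0.27 ± 0.19, with a 95% interval from -0.17 to 0.71. Msgn1, another presomitic factor, differed by 0.10 ± 0.11.

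Somite genes had differences of both signs. Of 36 genes of somite polarity and derivatives, 0 passed and the median was 0.03. At an unadjusted p under 0.05, 1 was higher and 3 lower, where 3.41% of all genes were higher and 1.86% lower. Uncx, a homeobox gene that marks the posterior part of each somite, had ratios of 0.816 and 0.760 in Dll3 null against 1 and 1.03 in Dll3 het. The null arrays lay clearly below, with a difference of -0.37 ± 0.12 SE, a 95% interval from -0.64 to -0.10 and, by limma, an adjusted p of 0.897. Myf5, the first muscle regulator of the somite, had log2 ratios of -1.02 and -0.85 in null and -0.53 and -0.29 in het. Both null arrays were below both het arrays. Its difference of -0.52 ± 0.11 had an unadjusted p of 0.00083 and an adjusted p of 0.842 by limma. Twist1, a regulator of mesoderm and neural crest, was on the other side, with 0.15 and 0 in null and -0.27 and -0.31 in het (0.36 ± 0.11).

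Not every somite gene followed Uncx or Myf5. Tbx18, a marker of the anterior part, differed by -0.22 ± 0.17 SE at its probe set with overlapping groups, and Meox1, of early somites, by -0.22 ± 0.13, also overlapping. The muscle regulators Myod1 and Myog differed by 0.18 ± 0.11 and 0.09 ± 0.14. Pax3, of the dermomyotome and neural tube, had log2 ratios of -0.53 and -0.0009 in null and 0.12 and 0.08 in het, so its difference of -0.37 ± 0.15 rests on Dll3_null replicate 1. Pax1, of the sclerotome that forms vertebrae, differed by 0.09 ± 0.13 and Tcf15, of the epithelial somite, by 0.20 ± 0.13. Of 13 measured genes linked to human axial skeleton disorders, 0 passed. In that list 3 lay above and 3 below, Dll3 among the latter (23.1% each, against 20.7% and 12.5% of all genes).

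Signals that pattern the trunk showed no calls. From the lists, 38 of the genes of lowest p had an unadjusted p under 0.05 by limma. In 21 of these the difference moved by over 1.5 times when some array was left out. The sign changed in 0, which was fixed in advance, because none of the 38 had overlapping groups. Of 23 FGF pathway genes, 6 lay above (26.1%, against 20.7% of all genes) and 0 below (against 12.5%), with a median of 0.03. Fgf10, of the limb field, differed by 0.26 ± 0.10 SE (0.15 without Dll3_null replicate 1). Among 38 Wnt genes, 2 lay above and 2 below (5.26% each, against 20.7% and 12.5% of all genes). Gsk3b, a kinase that restrains Wnt signalling, had log2 ratios of -0.50 and -0.35 in Dll3 null and 0.003 and 0 in Dll3 het. Wnt6 differed by 0.35 ± 0.13 (0.17 without Dll3_null replicate 1). In the retinoic acid list of 15 genes, the receptor gene Rarg differed by 0.28 ± 0.10 (0.18 without Dll3_het replicate 2). Aldh1a2, which makes retinoic acid in somites, differed by -0.18 ± 0.13. Among Hox genes, which give vertebrae their identity, 12 anterior members had a median of -0.05 and 19 posterior members a median of 0.03. Hoxd8 had 0 and 0.04 in null and -0.22 and -0.34 in het, both null arrays above. Hoxb9 had 0.94 and 0.09 in null and 0.03 and 0 in het, so its difference of 0.50 ± 0.22 rests on Dll3_null replicate 1.

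Markers of other tissues were followed because a whole embryo holds them all. Primitive red cell genes had the lowest median of the 32 lists, at -0.22 over 22 genes, and 0 passed. Of these genes 0 lay above and 4 below (0% and 18.2%, against 20.7% and 12.5% of all genes). The low median followed 1 array. Alas2, the first enzyme of haem synthesis in red cells, had log2 ratios of 0.13 and -1.36 in Dll3 null and 0.27 and 0 in Dll3 het. Rhag, a red cell membrane protein gene, had 0.11 and -1.18 in null and -0.001 and -0.004 in het. Klf1, the master regulator of these cells, had 0.12 and -0.69 in null and 0.09 and 0.11 in het. Not every member rested on that array. Epb42, of lowest p in the list, had -0.18 and -0.44 in null and -0.002 and 0.08 in het. Its difference was -0.35 ± 0.12 SE, and -0.22 without Dll3_null replicate 2. Tfrc also had both null arrays below, with 0.28 and 0.38 in null and 0.62 and 0.49 in het. Dll3_null replicate 2 was the lowest of the 4 arrays in 20 of 22 genes, while the list mean of Dll3_null replicate 1 lay between those of the het arrays. That mean was 0.09 and -0.49 in null and 0.11 and 0.01 in het. Without Dll3_null replicate 2 the median was 0.03 (8 lower, 14 higher), and without Dll3_null replicate 1 it was -0.48 (22 of 22 lower). The adult-type globin gene Hba-a1 (0.02 and 0.03 in null, 0.15 and -0.02 in het) did not share the low value of Dll3_null replicate 2, whereas the embryonic globin gene Hbb-bh1 did (0.08 and -0.44 in null, 0.04 and 0.03 in het).

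**Figure D3:**
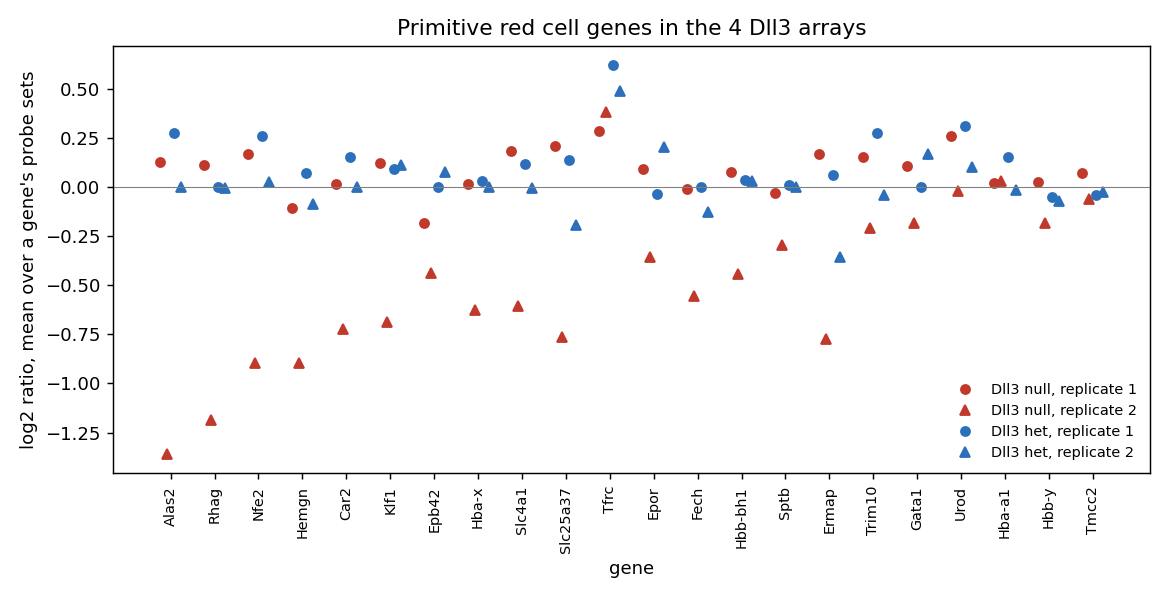
Log2 ratio averaged over a gene's probe sets (vertical axis) for 22 primitive red cell genes (horizontal axis, ordered by null minus het). Each point is 1 array, Dll3 null in red left of Dll3 het in blue. The red triangles, Dll3 null replicate 2, are lowest in 20 genes.

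The nervous system, crest and heart lists held both directions. Of 38 neuronal genes (median -0.01), 0 were higher and 2 lower at an unadjusted p under 0.05 by limma. All genes gave 3.41% higher and 1.86% lower. The 2 were Ebf3 (-0.30 ± 0.12 SE) and Neurog2 (-0.25 ± 0.11), both transcription factors of new neurons. Ebf3 differed by -0.16 without Dll3_null replicate 1, and Neurog2 by -0.13 without Dll3_het replicate 1. Among 33 neural progenitor genes the median was -0.003, with Hesx1, of the forebrain, at -0.36 ± 0.11 and Pou3f1 at 0.29 ± 0.10. The 21 neural crest genes had a median of 0.04, with Nr2f1 at 0.44 ± 0.15 (0.27 without Dll3_null replicate 1 or Dll3_het replicate 2). Of 40 heart muscle genes 11 lay above (27.5%, against 20.7% of all genes) and 4 below (10%, against 12.5%), with a median of 0.03. Tbx5, of heart and forelimb, had log2 ratios of -0.37 and -0.04 in null and 0.13 and 0.13 in het, and its difference of -0.34 ± 0.15 was -0.17 without Dll3_null replicate 1. Ttn, encoding titin, differed by 0.25 ± 0.11 (0.14 without Dll3_het replicate 2). The 25 branchial arch genes had 0 members at an unadjusted p under 0.05.

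Among the remaining tissue lists, 35 endothelial genes had a median of -0.02, with 6 above and 5 below (17.1% and 14.3%, against 20.7% and 12.5% of all genes). Those of lowest p were Ephb4 (0.31 ± 0.11 SE), Nrp1 (0.24 ± 0.11) and Pecam1 (-0.34 ± 0.16). Intermediate mesoderm, the source of the kidney, had 5 of 11 genes below and 0 above, a share of 45.5% below where all genes gave 12.5%. Its median was -0.05, and its lowest member, Osr1, had log2 ratios of -0.10 and -0.12 in null and 0.34 and 0 in het. The 17 gut endoderm genes all overlapped between genotypes. In the macrophage and blood list of 18, Myb, a regulator of blood progenitors, was lower (-0.38 ± 0.11) and Spi1, of macrophages, higher (0.32 ± 0.10), both with groups that did not overlap, and neither passed. Yolk sac and liver endoderm (24 genes, median 0.04) and trophoblast and decidua (17 genes, median 0.02), lists that include tissue outside the embryo proper, also had 0 calls. In the yolk sac and liver list, Slc39a8, a zinc transporter gene, differed by -0.53 ± 0.18 and Alb, encoding albumin, by 0.32 ± 0.14. Without Dll3_null replicate 2, Slc39a8 differed by -0.27 and Alb by 0.17.

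Housekeeping and stress lists were followed as signs of RNA and embryo condition. The 36 measured ribosomal protein genes had both null arrays above in 17 (47.2%) and below in 1 (2.78%), where all genes gave 20.7% and 12.5%, but the shift was small, with a median of 0.05. It ranged from 0.04 to 0.08 when each array was left out in turn, with 25 to 32 of the 36 higher, and was 0.09 with the most variable probe set of each gene. Rplp2 had log2 ratios of 0.06 and 0.08 in null and -0.12 and -0.13 in het. Cell cycle (46 genes, median 0.04), oxidative phosphorylation (49, 0.03) and p53 and cell death genes (26, 0.004) had 0 calls. Of 28 stress and immediate early genes, 4 lay above (14.3%, against 20.7% of all genes) and 8 below (28.6%, against 12.5%). Fosb, an immediate early gene, had 0.34 and 0.20 in null and -0.15 and -0.06 in het, while the heat shock gene Hspa1a had -0.49 and -0.56 in null and -0.37 and -0.08 in het.

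The single genes described next were taken from 177 probe sets, 124 higher and 53 lower in Dll3 null. Their groups did not overlap and their unadjusted p by limma was under 0.01. They are a share under 0.01 of the 20380 probe sets with 1 gene symbol. All probe sets leaned the same way, with 753 higher and 448 lower at an unadjusted p under 0.05. Since their differences and p-values chose the single genes, these describe the upper end of the differences and support nothing further. By limma the adjusted p was 0.897 for each of the 27 genes. Hyou1, a chaperone of the endoplasmic reticulum, had ratios of 1.47 and 1.29 in Dll3 null against 1 and 0.658 in Dll3 het, a difference of 0.77 ± 0.18 SE. Sem1, a small proteasome subunit, had 1.03 and 1.12 in null and 0.733 and 0.637 in het (0.66 ± 0.12). Hif1a, the oxygen-regulated transcription factor gene, had 1.30 and 1.06 in null and 0.800 and 0.707 in het (0.64 ± 0.13). Its 3 other probe sets differed by 0.24, -0.09 and -0.11, and of 45 hypoxia and glycolysis genes 0 had an unadjusted p under 0.05 (median 0.01). Crbn, a substrate receptor of a ubiquitin ligase, had 1 and 0.963 in null and 0.624 and 0.649 in het (0.62 ± 0.11), yet another Crbn probe set gave -0.37 ± 0.10.

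On the lower side, Nup62, a nuclear pore protein gene, had ratios of 0.713 and 0.820 in Dll3 null against 1.40 and 1.08 in Dll3 het, a difference of -0.68 ± 0.14 SE. Its 3 other probe sets differed by -0.07, 0.12 and 0.20. Itgb1, the beta-1 integrin gene, had 0.557 and 0.579 in null and 0.847 and 0.790 in het (-0.53 ± 0.11), with 5 other probe sets between -0.15 and 0.09. Mybl1, a Myb-family factor, had 0.492 and 0.404 in null and 0.639 and 0.657 in het (-0.54 ± 0.12). Slc39a8, a zinc transporter gene, differed by -0.63 ± 0.19, and its other probe set by -0.43 ± 0.20. Across the 27 genes, 19 had other probe sets, 45 in all, of which 25 had the same sign and 20 the opposite one. At an unadjusted p under 0.05 there was 1 with the same sign (Sbk1, a kinase gene, 0.38) and 1 with the opposite sign (Crbn).

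**Figure D4:**
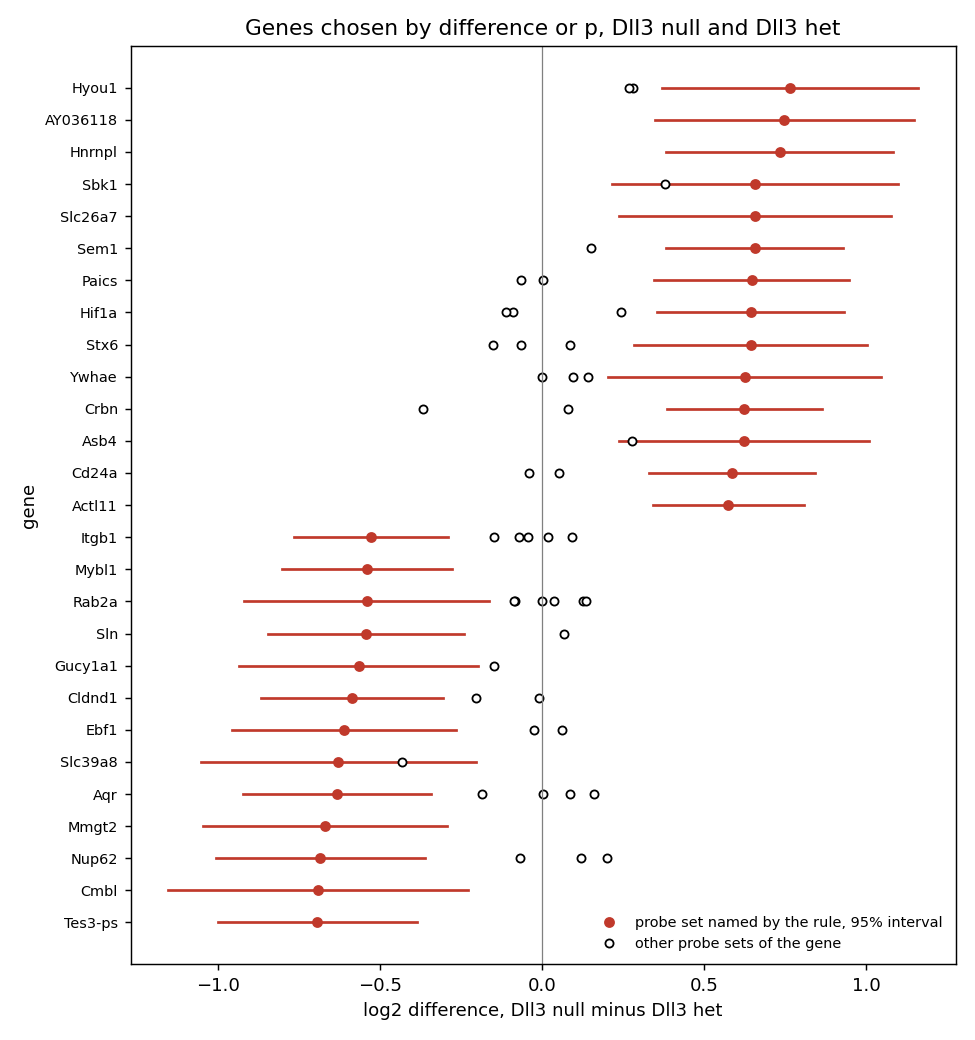
Log2 difference, Dll3 null minus Dll3 het (horizontal axis), for the 27 genes so chosen (vertical axis). Filled points are the probe set chosen for its difference or p, with its 95% interval. Open points are the same gene's other probe sets. They lie closer to 0, which the choice of the filled points favours.

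Genes beside Dll3 on chromosome 7 were examined after the values had been seen, in the order of the RefSeq table. The 30 measured genes, 15 on each side, included 6 with an unadjusted p under 0.05 (20%, against 5.28% of all 12393 genes) and 17 whose groups did not overlap (56.7%, against 33.2%). Neither figure is a test, and the lowest adjusted p by limma was 0.842. Hnrnpl, an RNA-binding regulator of splicing and the 15th gene on one side, had log2 ratios of 0.77 and 0.87 in Dll3 null against -0.09 and 0.27 in Dll3 het, a difference of 0.73 ± 0.15 SE. It is also among the 27 genes above. Supt5, a transcription elongation factor gene, had 0.12 and -0.35 in null and -0.48 and -0.41 in het (0.33 ± 0.14, or 0.10 without Dll3_null replicate 1). Fbxo17, an F-box protein gene, had -0.09 and 0 in null and 0.33 and 0.24 in het (-0.33 ± 0.09).

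The neighbours did not share a direction. Of the 30, 10 lay above and 7 below, where 20.7% of all genes lay above and 12.5% below. Their median was 0.09, with a range from -0.51 (Blvrb) to 0.73 (Hnrnpl). The Blvrb value rests on Dll3_null replicate 2 and was -0.06 without it. Lrfn1 (0.31 ± 0.12 SE) and the proteasome gene Psmc4 (0.24 ± 0.09) were higher, and the mitochondrial ribosome gene Mrps12 (-0.25 ± 0.10) was lower. The genes directly next to Dll3, Selenov and Timm50, differed by 0.16 ± 0.11 and 0.19 ± 0.19 with overlapping groups. Of the 30 genes at places 16 to 30, 6 again had an unadjusted p under 0.05 (20%), of those at places 31 to 60, 3 of 60 (5%), and of those at places 61 to 120, 13 of 120 (10.8%). Over chromosome 7 it was 71 of 957 genes (7.42%). The count of 6 became 3 if Dll3_null replicate 1 was left out and 7 if Dll3_null replicate 2 was.

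**Figure D5:**
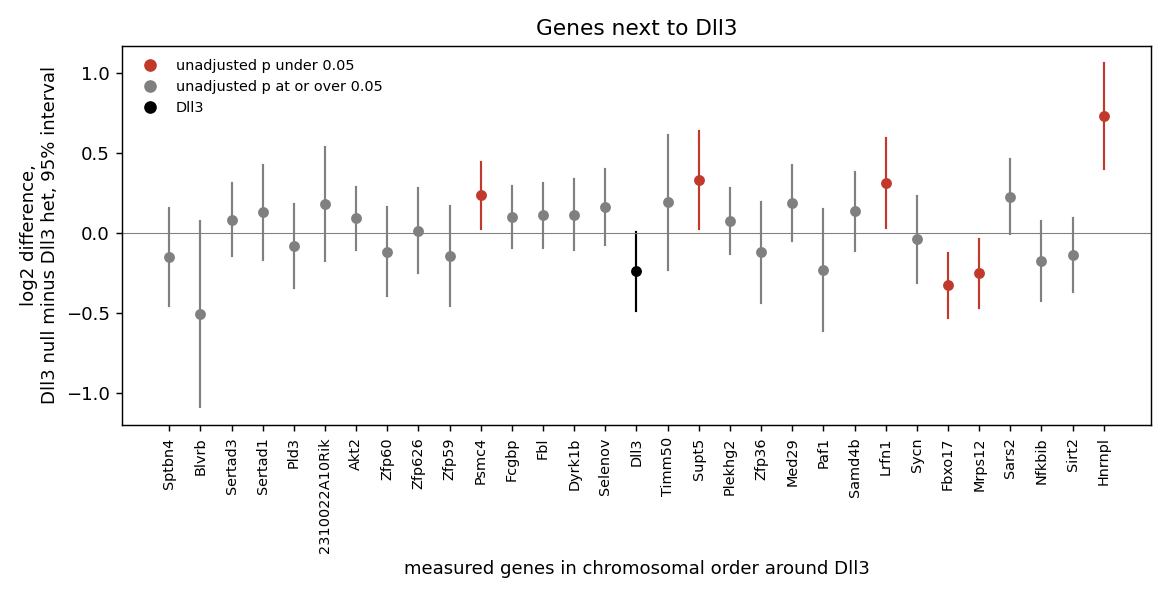
Log2 difference, Dll3 null minus Dll3 het, with its 95% interval (vertical axis) for Dll3 (black) and 15 measured genes on each side in chromosomal order (horizontal axis, evenly spaced). Genes with an unadjusted p under 0.05 are red. They number 6, with 4 above 0 and 2 below.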

How the data were processed

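Total RNA of whole embryos was labelled with biotin and hybridised to Affymetrix arrays, per the labels' protocols. The deposited values are linear ratios, made with RMA per the submitters' processing notes. No version or genome build is given in the sources used here. The median over the 9 arrays is exactly 1 for 19796 of 22626 tested probe sets, and lies below 1, by more than a rounding tolerance of 0.002, for 2811, Mybl1 and Itgb1 among them. Division by the median, or by a floor where that is higher, is inferred from these values and stated by no source used here. A filter by level could not be applied. The log2 of the deposited ratios was taken with no pseudocount, and 64 control probe sets were left out. Platform annotation gave 20380 probe sets 1 gene symbol, 691 several and 1555 none. Those with several or none were tested but not named.

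The test was limma's moderated linear model (version 3.58.1, R 4.3.3), fitted to all 9 arrays with a mean for each genotype (4 residual and 5.42 prior degrees of freedom), 2-sided, with Benjamini-Hochberg adjustment and an adjusted p under 0.05 called changed. Errors and 95% intervals come from that fit. A permutation of 2 against 2 arrays cannot go below an exact p of 0.333. Tests of single probe sets use 22626 probe sets, and lists and neighbours use the average of a gene's probe sets (12393 genes). Of 829 listed genes, 717 were measured, and lists are described by counts and medians with no test.

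Named, in the text or a figure, are the 12 highest and 12 lowest differences and the 5 of lowest p each way. These were taken among probe sets with 1 symbol, groups that do not overlap and an unadjusted p under 0.01 by limma. Also named are a set of Notch and segmentation genes and some linked to sex. Of the 4 members of lowest p in each list only some are named, by no fixed rule. Members, genes and lists were chosen with earlier results of these data known. Other members of lists and the single examples without Dll3_null replicate 2 were named after their values were seen. Promoters are from RefSeq (GRCm38.p6). On simulated data with independent noise, the fit was checked only for returning the mean of an added shift. That check does not cover outlying arrays or sex differences. Alternatives were other scalings, fits and groups of arrays, a replicate block, averages over the probe sets of a gene, another threshold and each array left out in turn.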

Additional observations from a re-analysis of the deposited data

How the results depend on the processing

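By limma, the count of probe sets changed between Dll3 null and Dll3 het stayed at 0 with only the 4 Dll3 arrays, median centring, quantile normalization, robust or weighted fits, averaged probe sets, probe sets with a median below 1 left out and an adjusted p under 0.1. It ranged from 0 to 17 when each array was left out in turn, the 17 arising without Dll3_null replicate 2, where the lone null array is assumed to vary like the other groups. At an unadjusted p under 0.05 the count was 837 with only the 4 arrays, 1528 with quantile normalization and 913 to 1952 when each array was left out, against 1201. With the replicate number as a block, 0 probe sets passed and 828 (4 arrays) or 1206 (9 arrays) had an unadjusted p under 0.05. The deviations of same-numbered arrays correlated at 0.0039 over probe sets, so the block was not taken as the main design, although same-numbered arrays share a sex pattern. The count between replicate numbers was 5 with only the 4 Dll3 arrays and 1 with quantile normalization, against 0. The Dll3 difference ranged from -0.35 to -0.13 when each array was left out. Of 297 values of the 27 genes chosen by difference or p under 11 alternatives, 0 changed sign and 0 passed. Their groups were chosen not to overlap, so leaving out 1 array could not change a sign. Of 594 values of the fixed genes, 3 moved by at least the spread between replicates (Notch2). Leaving out 1 array cannot move a probe set's difference beyond that spread, so this count does not measure stability. Of 384 list medians, 45 moved by at least the spread of the list mean, several changing sign when 1 array was left out. The red cell median was 0.03 without Dll3_null replicate 2, against -0.22. Having 2 arrays per group limits the precision of every value, and no signal over background is available in ratios.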
